A study of Homo sapiens with 8 samples.

Results

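The 42 autophagy and lysosome genes described here were listed by name and fell into 21 autophagosome genes, 18 genes of lysosomal enzymes and membrane proteins, and 3 transcription factors of the MiT/TFE family. Each gene was read at the probe set that carried its symbol alone and had the highest mean over the 8 arrays, and all 42 were among the 19775 genes measured. RNA levels were compared in MDA-MB-231, a mesenchymal-like breast cancer line without oestrogen receptor, and in T47D, a breast cancer line of luminal type that carries the oestrogen receptor. The cells had been infected with a lentivirus that carried a hairpin against XBP1 (shXBP1) or a control hairpin (shCtrl), and were kept in puromycin afterwards. The 4 groups were MDA-MB-231 shXBP1, MDA-MB-231 shCtrl, T47D shXBP1 and T47D shCtrl, with 2 arrays each. Every group, the controls included, had spent 24 h at 0.1% O2 in DMEM that lacked glucose and contained serum. Cells outside this treatment were not analysed here, so each value is a level under combined oxygen and glucose shortage. The labels give no hairpin sequence, so an effect of the hairpin apart from XBP1 and an effect of XBP1 loss cannot be told apart. They call the replicates biological without naming separate infections or cultures, so the p-values rest on the scatter among these arrays alone, and that scatter may be technical.

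Autophagy wraps cytoplasm in a membrane sac, the autophagosome, which fuses with the lysosome, where acid hydrolases digest the contents. The ULK kinases start the process, a lipid kinase complex with BECN1 and ATG14 marks the membrane, ATG9A, ATG2A and the WIPI proteins supply and shape it, and a conjugation system resembling ubiquitination attaches ATG8 proteins, to which cargo receptors bind. TFEB, TFE3 and MITF bind short elements in the promoters of lysosomal genes and are known for raising them in starved cells, whereas XBP1 acts in the unfolded protein response and is known for genes of protein folding and secretion.

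XBP1 itself was low on every knockdown array. The MDA-MB-231 readings were 7.13 and 6.69 with shXBP1, against 10.83 and 10.69 with shCtrl, on the RMA log2 scale, where a difference of 1 is a 2-fold change. The T47D readings were 7.52 and 7.16 with shXBP1, against 12.41 and 12.56 with shCtrl. The groups did not overlap in either line, and XBP1 fell by 3.85 on the log2 scale in MDA-MB-231 (adjusted p = 6.932e-05) and by 5.15 in T47D (adjusted p = 8.684e-06). The array medians lay between 5.87 and 5.91. Of the 42 members, 41 had every group mean above the median of all values, 5.90, and the exception was ULK2 in MDA-MB-231 shCtrl. The median SD between replicate arrays was 0.053 over the members and groups. All 8 luminal markers read above the array median on every T47D array, and all 6 mesenchymal markers did so on every MDA-MB-231 array. In the other line, 3 of the 8 luminal markers did so on every MDA-MB-231 array and 2 of the 6 mesenchymal markers on every T47D array. Of 5 fibroblast markers, 3 read above the array median on every array of each line. Leukocyte markers stayed between 3.75 and 6.38 in both lines. The line markers did not all stand still under knockdown: KRT8 changed by 0.49 in MDA-MB-231 and -1.33 in T47D, KRT18 by -0.80 in T47D, and AXL by -2.19 in MDA-MB-231 (adjusted p from 7.43e-05 to 0.0117). Also called were ESR1 (0.39), KRT19 (-0.45), CD44 (-0.57) and ZEB1 (-0.42) in T47D, and EPCAM (-0.53) in MDA-MB-231 (limma adjusted p from 0.00407 to 0.0334). ZEB1 in T47D and EPCAM in MDA-MB-231 read below the array median. Of the fibroblast markers, COL1A1 rose by 0.70 in T47D (limma adjusted p = 0.0223). The ACTB 3' minus 5' signal, a sign of RNA quality, averaged 0.999 in MDA-MB-231 shXBP1 and 1.26 in MDA-MB-231 shCtrl, and 1.12 in T47D shXBP1 and 1.00 in T47D shCtrl. The part of these differences in the results below was not tested. In bulk RNA, fewer cells of a kind and less RNA per cell cannot be told apart.

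XBP1 knockdown moved the lysosomal genes of the 2 lines differently. In MDA-MB-231, 8 of the 42 members passed an adjusted p of 0.05, 6 of them upwards and 2 downwards, which is 19.0% of the members against 17.2% of all genes (10.6% upwards and 6.68% downwards). In T47D, 23 members passed, 9 upwards and 14 downwards, or 54.8% of the members against 29.1% of all genes (15.5% upwards and 13.5% downwards). The lysosomal genes made up most of the falls in T47D: 11 of 18 fell and 2 rose, with a median log2 change of -0.35. Of the 21 autophagosome genes in T47D, 6 rose and 3 fell, with a median of -0.00096. In MDA-MB-231, 4 lysosomal genes rose and 0 fell in limma, also at an unadjusted p of 0.05 (median 0.068), and 2 autophagosome genes rose and 2 fell (median 0.17). With the mean over the probe sets of each gene the autophagosome median was 0.064 in MDA-MB-231 and 0.107 in T47D, and the lysosomal median in MDA-MB-231 ran between -0.019 and 0.117 when 1 array was left out. The median over all genes tested was 0.030 in MDA-MB-231 and -0.016 in T47D. Separated arrays alone were common: 30 of 42 members in MDA-MB-231 and 35 in T47D had knockdown and control arrays that did not overlap, against 54.5% and 64.1% of all genes. All 42 members had at least 1 group mean above the median of all values, as had 13730 of the 19775 genes. The shares of all genes given here and below include the dimmer genes. The part of brightness in the higher shares of the members was not tested.

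The difference between the lines was tested directly, as the knockdown effect in MDA-MB-231 minus that in T47D. It passed the threshold for 17 members, or 40.5% against 24.8% of all genes. In 12 of these the effect was higher in MDA-MB-231 (13.0% of all genes) and in 5 it was lower (11.8% of all genes). Among lysosomal genes 7 differences were positive and 1 was negative (median 0.36 over all 18), and among autophagosome genes 5 were positive and 3 negative (median -0.054 over all 21). The median over all genes was 0.052. Across the members, 14 had a call in neither line, 20 in T47D alone, 5 in MDA-MB-231 alone and 3 in both, and a call in a single line does not by itself show that the lines differ. CTSA rose in both lines, and ATG4A and CTSD rose in MDA-MB-231 and fell in T47D.

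The calls were not equally stable. Over 14 alternative settings, which include leaving out each array in turn, 3 of the 8 calls in MDA-MB-231 held throughout (ATG4A, OPTN and CTSB), against 15 of the 23 calls in T47D. Without MDA-MB-231 shCtrl replicate 1, or without MDA-MB-231 shXBP1 replicate 2, the count in MDA-MB-231 was 3. It was 4 without MDA-MB-231 shXBP1 replicate 1 or either T47D shXBP1 array, and 5 without MDA-MB-231 shCtrl replicate 2. With limma's trend and robust options the count in MDA-MB-231 was 14. For the difference between the lines, 8 of 17 calls held under all 13 alternatives, and 11 were made without T47D shXBP1 replicate 2.

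**Figure D1:**
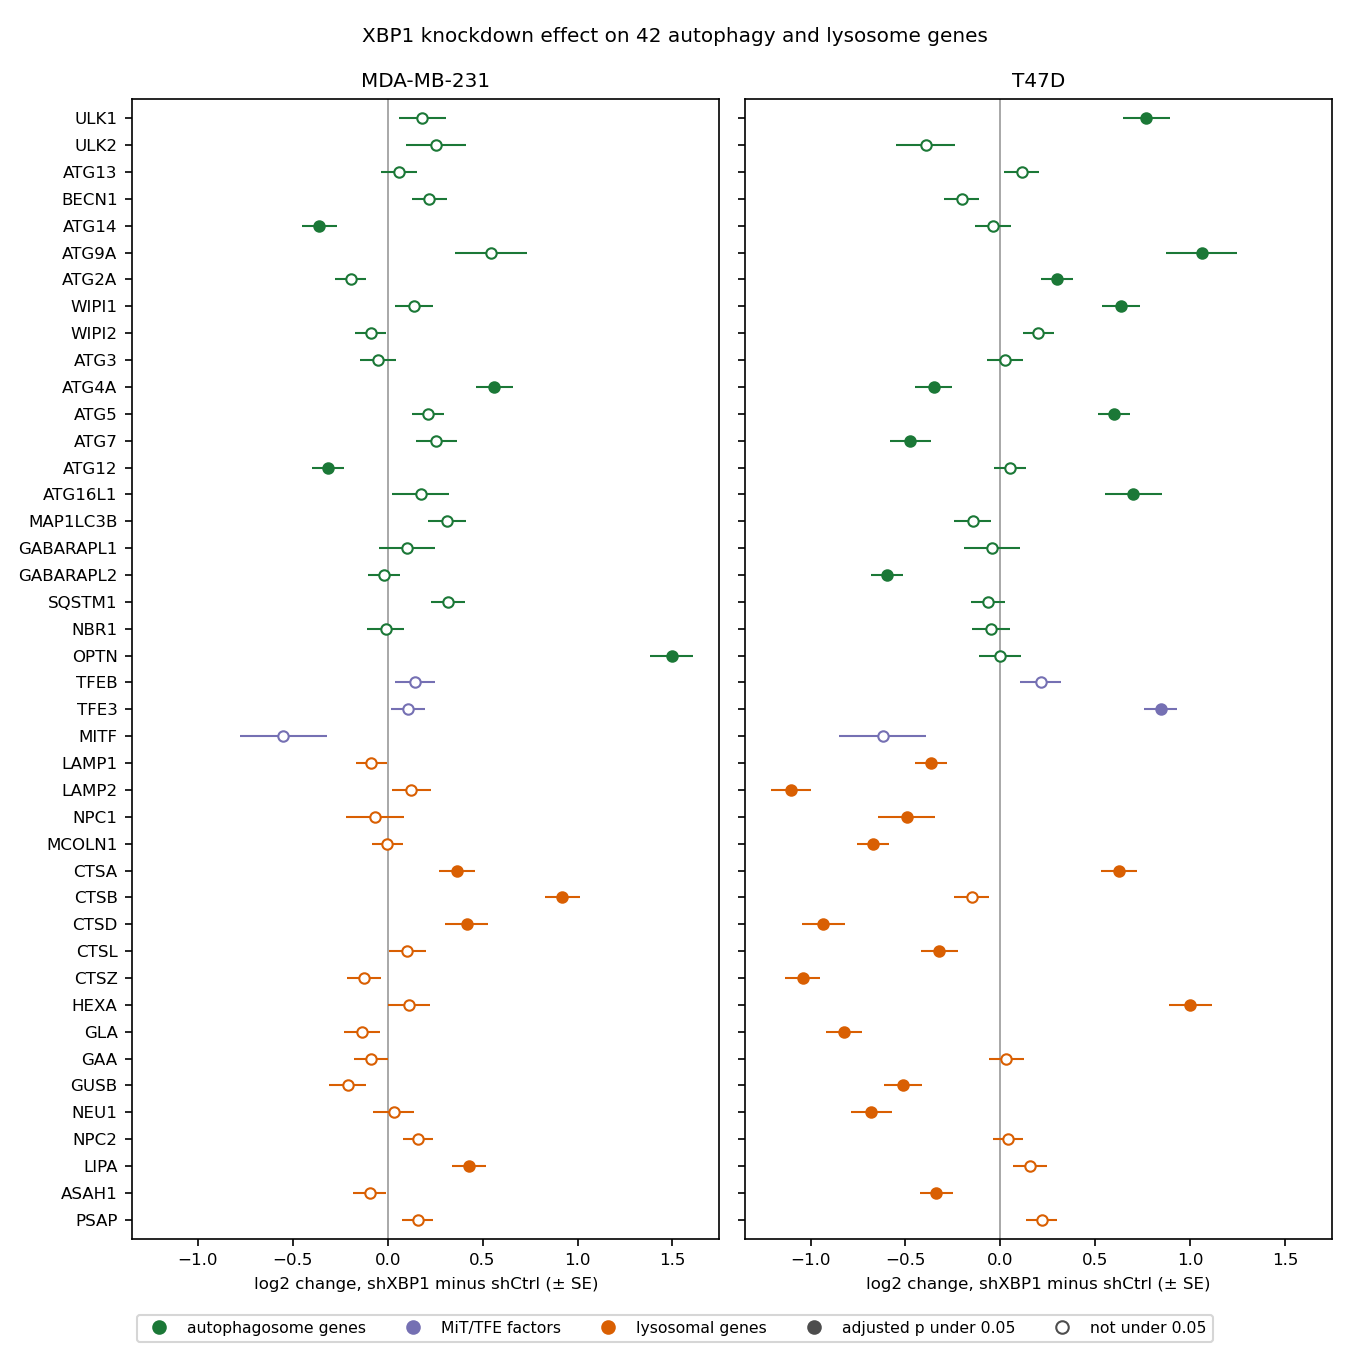
Log2 change with XBP1 knockdown (shXBP1 minus shCtrl, horizontal axis, ± SE from limma) of all 42 members in MDA-MB-231 (left) and T47D (right), 2 arrays per group; filled points have an adjusted p under 0.05. Lysosomal genes (orange) lie mostly left of 0 in T47D, where 11 of 18 fell, and near or right of 0 in MDA-MB-231, where 0 of these 18 fell. The largest change in MDA-MB-231 is that of OPTN, an autophagosome gene, at 1.50.

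**Figure D2:**
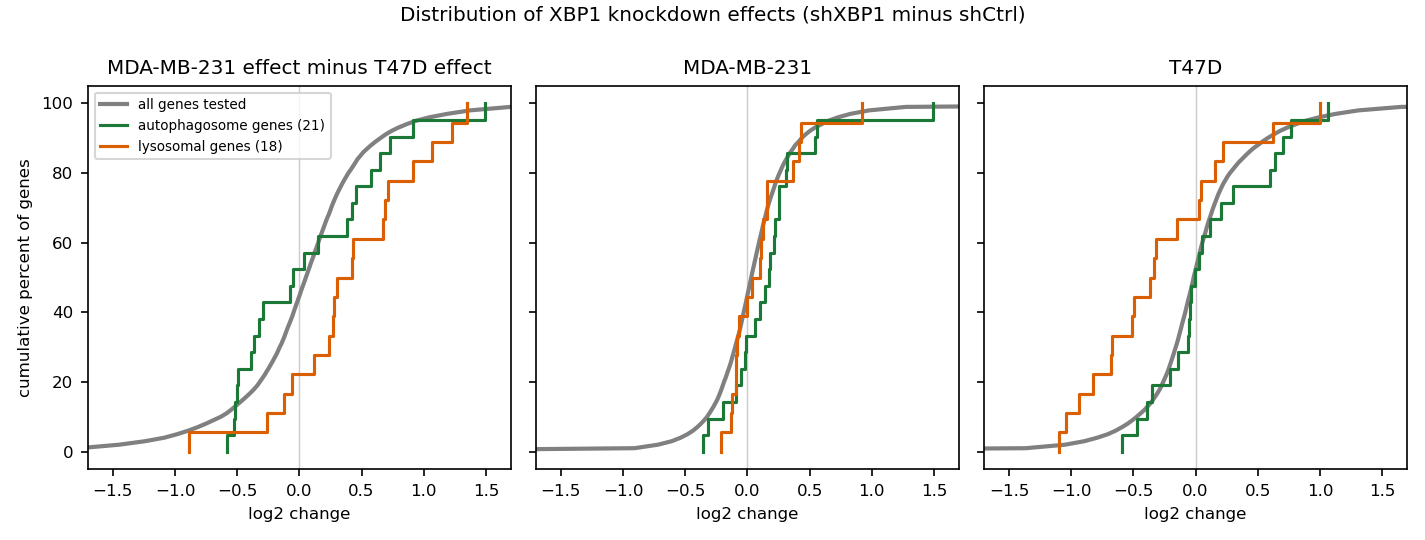
Cumulative percent of genes (vertical axis) by log2 change (horizontal axis) for the 21 autophagosome genes, the 18 lysosomal genes and all 19775 genes tested, in panels for the difference between the lines (MDA-MB-231 minus T47D), for MDA-MB-231 and for T47D. In T47D the lysosomal curve lies left of the curve of all genes, with a median of -0.35 against -0.016. In MDA-MB-231 the medians are 0.17 for autophagosome genes and 0.068 for lysosomal genes, against 0.030 for all genes.

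Among the initiation genes, ULK1 was called in T47D, and the probe sets of ULK2 disagreed. ULK1, the kinase that starts autophagy, read 8.97 and 8.88 in T47D shXBP1, against 8.32 and 7.99 in T47D shCtrl. It read 8.69 and 8.56 in MDA-MB-231 shXBP1, against 8.48 and 8.41 in MDA-MB-231 shCtrl. The groups did not overlap in either line, yet only the T47D rise passed the test (0.77 ± 0.12 SE, adjusted p = 0.00256, against 0.18 and adjusted p = 0.382 in MDA-MB-231). The difference between the lines was -0.59 (adjusted p = 0.0455), a call that was lost without T47D shCtrl replicate 2, without either T47D shXBP1 array or without any of the 4 MDA-MB-231 arrays (adjusted p up to 0.141). ATG13, the scaffold of this complex, had changes of 0.06 in MDA-MB-231 and 0.11 in T47D and ULK2, the paralogous kinase, 0.25 and -0.39, none of which passed. ULK2 read close to the array median, and its 4 probe sets gave changes of both signs in T47D, from -0.65 to 0.84. The ULK2 probe sets that passed in T47D rose there (0.63 and 0.84, adjusted p = 0.00371 and 0.0256), and the first of them had -0.39 in MDA-MB-231 (adjusted p = 0.0464) and a difference of -1.02 (adjusted p = 0.00271). Both were above the array median on 4 of 8 arrays.

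The nucleation genes BECN1 and ATG14, subunits of the lipid kinase complex, held 1 call. ATG14 read 8.25 and 8.33 in MDA-MB-231 shXBP1, against 8.66 and 8.64 in MDA-MB-231 shCtrl. Both knockdown arrays were lower than both control arrays, and the fall of 0.36 ± 0.09 had an adjusted p of 0.0345. In T47D, ATG14 read 9.98 and 10.13 with shXBP1, against 10.05 and 10.14 with shCtrl, so those arrays overlapped. The MDA-MB-231 call was lost when any 1 of the 8 arrays was left out (adjusted p up to 0.127). BECN1 had log2 changes of 0.22 in MDA-MB-231 and -0.20 in T47D, neither of which passed (adjusted p = 0.165 and 0.159).

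The genes that supply and shape the membrane rose in T47D in 3 of 4 cases, and 0 of 4 were called in MDA-MB-231, where 2 had an unadjusted p under 0.05 in limma. Over all genes, 15.5% rose in T47D and 17.2% were called in MDA-MB-231. ATG9A, a membrane protein that seeds the autophagosome, read 7.62 and 7.69 in T47D shXBP1, against 6.27 and 6.91 in T47D shCtrl. It read 8.78 and 8.90 in MDA-MB-231 shXBP1, against 8.33 and 8.26 in MDA-MB-231 shCtrl. Knockdown arrays were higher in both lines without overlap. ATG9A rose by 1.06 ± 0.19 in T47D (2.09-fold, adjusted p = 0.004). Its change in MDA-MB-231 was 0.54 (adjusted p = 0.0927), and the difference, -0.52, did not pass (95% interval -1.14 to 0.10). WIPI1, which reads the lipid mark, was at 11.85 and 11.85 in T47D shXBP1, against 11.24 and 11.19 in T47D shCtrl. MDA-MB-231 arrays gave 7.94 and 7.75 with shXBP1, against 7.77 and 7.64 with shCtrl. The T47D arrays stood apart (0.64 ± 0.10, adjusted p = 0.00214) and the MDA-MB-231 arrays overlapped. The difference of -0.50 had an adjusted p of 0.0357, which rose above 0.05 without any 1 of the 4 T47D arrays, without MDA-MB-231 shCtrl replicate 1 or without MDA-MB-231 shXBP1 replicate 2 (up to 0.106). ATG2A, the lipid transfer protein, rose by 0.30 in T47D and changed by -0.20 in MDA-MB-231 (difference -0.50, adjusted p = 0.0187). Its T47D call was lost without any 1 of the 4 T47D arrays (adjusted p up to 0.155), and the difference without any of these or without MDA-MB-231 shCtrl replicate 2 (up to 0.0769). WIPI2 changed by -0.09 in MDA-MB-231 and 0.20 in T47D, with no call.

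Within the conjugation machinery, 4 of 6 genes were called in T47D, 2 in each direction, and 2 of 6 in MDA-MB-231, 1 in each direction. That is 66.7% against 29.1% of all genes in T47D, and 33.3% against 17.2% in MDA-MB-231. ATG4A, a protease that trims ATG8 proteins, read 8.63 and 8.47 in MDA-MB-231 shXBP1, against 8.04 and 7.95 in MDA-MB-231 shCtrl. T47D arrays gave 8.15 and 8.20 with shXBP1, against 8.47 and 8.59 with shCtrl. The groups did not overlap, and the direction was opposite: a rise of 0.56 ± 0.10 in MDA-MB-231 (adjusted p = 0.00696) and a fall of 0.35 in T47D (adjusted p = 0.0288), with a difference of 0.91 (adjusted p = 0.00266). The T47D call was lost without any 1 of the 4 T47D arrays (adjusted p up to 0.148), whereas the MDA-MB-231 call and the difference held in all alternatives run. ATG7, the activating enzyme of the conjugation system, fell by 0.47 in T47D and changed by 0.26 in MDA-MB-231, a difference of 0.73 (adjusted p = 0.0113). That difference was lost without T47D shXBP1 replicate 2 (adjusted p = 0.0501), and the T47D call without T47D shCtrl replicate 1 or either T47D shXBP1 array (up to 0.0864). ATG5 and ATG16L1, which form the ligase complex with ATG12, rose in T47D by 0.60 and 0.70 (adjusted p = 0.00139 and 0.00957). The ATG16L1 call was lost without T47D shCtrl replicate 1 or T47D shXBP1 replicate 1 (adjusted p up to 0.074). ATG12 fell by 0.31 in MDA-MB-231 (adjusted p = 0.0398), a call lost without any 1 of the 8 arrays (up to 0.485 over the alternatives), and changed by 0.05 in T47D. ATG3, the conjugating enzyme, had changes of -0.05 in MDA-MB-231 and 0.03 in T47D.

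Of the ATG8 proteins, which coat the autophagosome membrane, GABARAPL2 carried the change. GABARAPL2 read 11.95 and 12.04 in T47D shXBP1, against 12.58 and 12.60 in T47D shCtrl. In MDA-MB-231 it read 11.83 and 11.78 with shXBP1, against 11.83 and 11.82 with shCtrl. The T47D arrays were well separated and the MDA-MB-231 arrays overlapped. GABARAPL2 fell by 0.60 ± 0.08 in T47D (adjusted p = 0.00136), and the difference between the lines was 0.58 (adjusted p = 0.0105, or 0.0519 without T47D shXBP1 replicate 1). MAP1LC3B, the LC3 protein used as a marker of autophagosomes, read 11.90 and 11.74 in MDA-MB-231 shXBP1, against 11.50 and 11.52 in MDA-MB-231 shCtrl. It read 11.38 and 11.31 in T47D shXBP1, against 11.42 and 11.56 in T47D shCtrl. Knockdown arrays were higher in MDA-MB-231 and lower in T47D without overlap, but neither change passed (0.31, adjusted p = 0.0684, and -0.15, adjusted p = 0.337). Their difference of 0.46 had an adjusted p of 0.0473, which was above 0.05 in 10 of 13 alternatives, among them 7 of the 8 that leave out an array (all but MDA-MB-231 shXBP1 replicate 2; up to 0.15). The other MAP1LC3B probe set, of similar mean (11.52 against 11.54), changed by 0.18 in MDA-MB-231 and 0.07 in T47D, both without a call. Its difference between the lines was 0.11 (limma adjusted p = 0.653). GABARAPL1 read 10.89 and 10.64 in MDA-MB-231 shXBP1, against 10.68 and 10.64 in MDA-MB-231 shCtrl. In T47D it read 8.48 and 8.47 with shXBP1, against 8.31 and 8.73 with shCtrl. The arrays overlapped in both lines, and the changes were 0.10 and -0.04.

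Among the cargo receptors OPTN had the largest change of all members. OPTN, the optineurin receptor that links ubiquitinated cargo to ATG8 proteins, read 10.13 and 9.85 in MDA-MB-231 shXBP1, against 8.44 and 8.55 in MDA-MB-231 shCtrl. The T47D readings were 10.46 and 10.48 with shXBP1, against 10.45 and 10.50 with shCtrl. Both MDA-MB-231 knockdown arrays were far above their controls and approached the T47D level, while the T47D arrays overlapped. The rise in MDA-MB-231 was 1.50 ± 0.11 (2.82-fold, adjusted p = 0.000238), the T47D change was -0.00 (95% interval -0.26 to 0.26), and the difference was 1.50 (adjusted p = 0.000655). The other OPTN probe set gave 2.03 in MDA-MB-231 and 0.32 in T47D (adjusted p = 4.66e-05 and 0.0405) in a fit over all 41097 probe sets with a single symbol. SQSTM1, the p62 receptor, read 11.78 and 11.72 in MDA-MB-231 shXBP1, against 11.44 and 11.42 in MDA-MB-231 shCtrl. T47D arrays gave 11.51 and 11.40 with shXBP1, against 11.46 and 11.59 with shCtrl. Its MDA-MB-231 arrays did not overlap, but the change of 0.32 had an adjusted p of 0.0521, and the T47D arrays overlapped. NBR1, a related receptor, read 10.58 and 10.47 in MDA-MB-231 shXBP1, against 10.63 and 10.44 in MDA-MB-231 shCtrl, and 11.40 and 11.33 in T47D shXBP1, against 11.39 and 11.45 in T47D shCtrl. Its arrays overlapped in both lines.

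**Figure D3:**
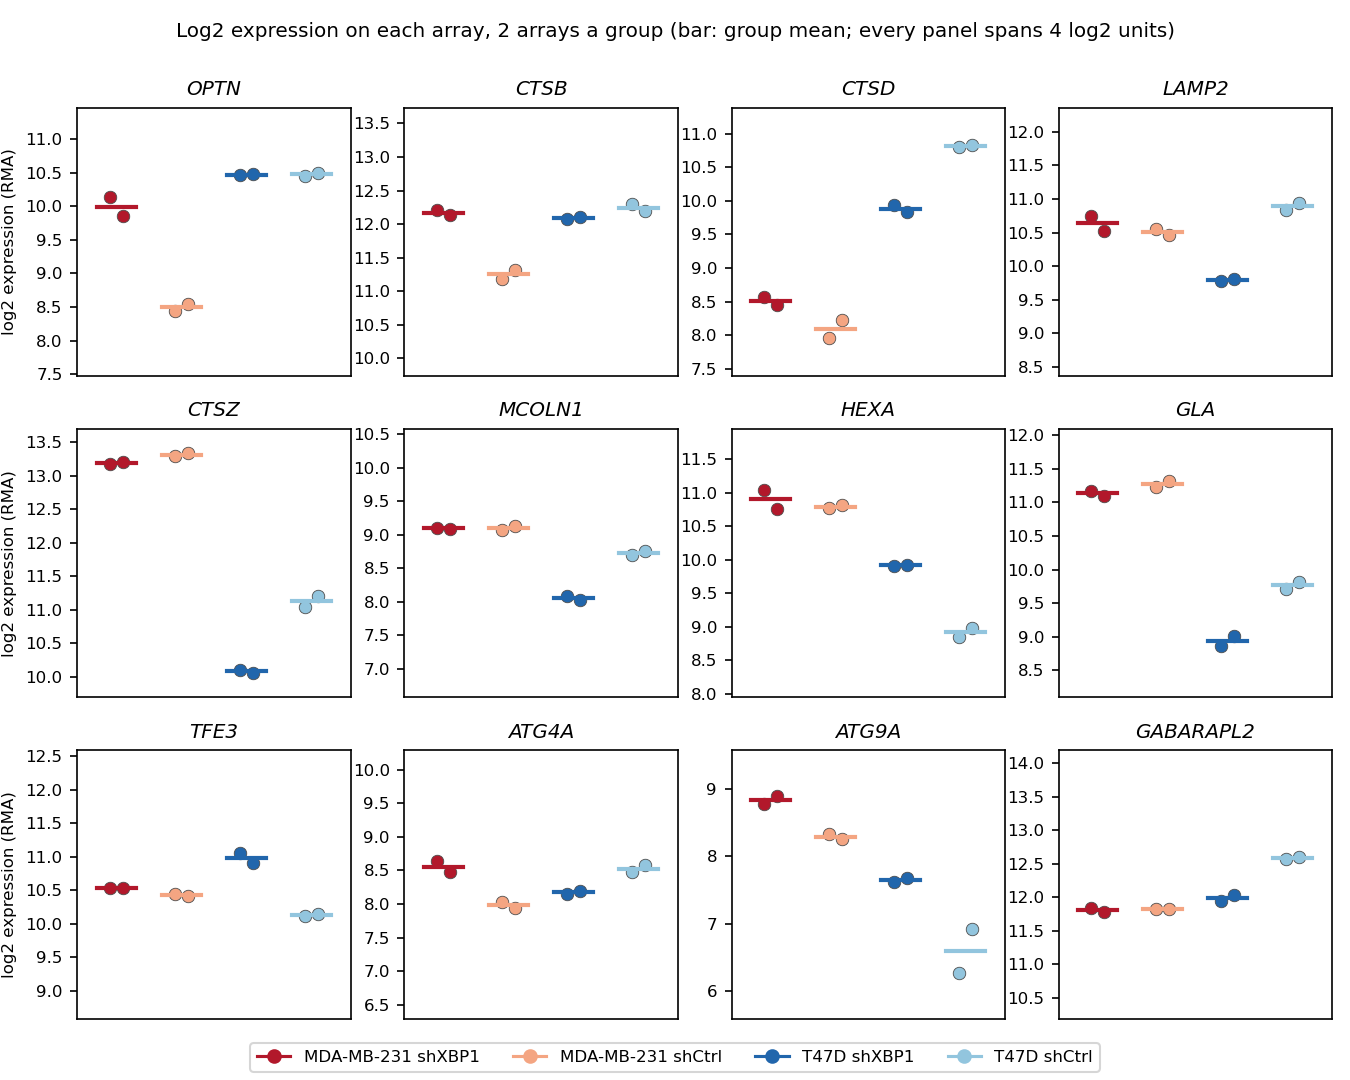
RMA log2 expression (vertical axis) on each of the 8 arrays for 12 members, ordered within each panel as MDA-MB-231 shXBP1, MDA-MB-231 shCtrl, T47D shXBP1 and T47D shCtrl; points are arrays and bars are means of 2 arrays. OPTN and CTSB stand higher with shXBP1 in MDA-MB-231, and LAMP2, CTSD, CTSZ, MCOLN1 and GLA stand lower with shXBP1 in T47D.

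The MiT/TFE factors, which switch on lysosomal genes, held 1 call in T47D, a rise, and limma called 0 of 3 in MDA-MB-231, where MITF had an unadjusted p of 0.044. That is 33.3% against 29.1% of all genes in T47D, and 0% against 17.2% in MDA-MB-231. TFE3 read 11.05 and 10.90 in T47D shXBP1, against 10.12 and 10.15 in T47D shCtrl. The MDA-MB-231 readings were 10.53 and 10.54 with shXBP1, against 10.44 and 10.42 with shCtrl. The knockdown arrays were higher in both lines, by 0.85 ± 0.09 in T47D (1.80-fold, adjusted p = 0.000327) and by 0.11 in MDA-MB-231 (adjusted p = 0.479). The difference was -0.74 (adjusted p = 0.0045), and when all 4 probe sets of TFE3 were averaged, 2 of them dim, it was -0.31 (adjusted p = 0.0843) and the T47D rise was 0.39. TFEB read 7.82 and 7.80 in MDA-MB-231 shXBP1, against 7.56 and 7.78 in MDA-MB-231 shCtrl, and 7.70 and 7.53 in T47D shXBP1, against 7.41 and 7.40 in T47D shCtrl. These changes of 0.14 and 0.21 did not pass at the brightest probe set, but the other TFEB probe set gave 0.60 in MDA-MB-231 (adjusted p = 0.0155) and 1.18 in T47D (adjusted p = 0.000407). MITF read 10.32 and 10.60 in MDA-MB-231 shXBP1, against 11.21 and 10.81 in MDA-MB-231 shCtrl. In T47D it read 6.30 and 5.73 with shXBP1, against 6.82 and 6.46 with shCtrl, close to the array median. Both lines had lower knockdown arrays without overlap, and neither change passed (-0.55 and -0.62, adjusted p = 0.153 and 0.0831).

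All 4 lysosomal membrane proteins fell in T47D, and in MDA-MB-231 limma called 0 of 4, also at an unadjusted p of 0.05. Of all genes, 13.5% fell in T47D and 17.2% were called in MDA-MB-231, so 0 calls among 4 genes does not set them apart there. LAMP2, a major glycoprotein of the lysosomal membrane and a receptor of chaperone-mediated autophagy, read 9.78 and 9.81 in T47D shXBP1, against 10.84 and 10.95 in T47D shCtrl. MDA-MB-231 arrays gave 10.75 and 10.53 with shXBP1, against 10.56 and 10.47 with shCtrl. T47D arrays were far apart and MDA-MB-231 arrays overlapped. LAMP2 fell by 1.10 ± 0.10 in T47D (2.15-fold, adjusted p = 0.000217), and the difference between the lines was 1.23 (adjusted p = 0.00106). All 4 LAMP2 probe sets were lower in T47D, by 0.51 to 2.05 on the log2 scale. MCOLN1, the TRPML1 calcium channel of the lysosome, read 8.09 and 8.02 in T47D shXBP1, against 8.69 and 8.75 in T47D shCtrl, and 9.10 and 9.09 in MDA-MB-231 shXBP1, against 9.06 and 9.13 in MDA-MB-231 shCtrl. It fell by 0.67 in T47D (adjusted p = 0.000764), with overlapping arrays in MDA-MB-231 and a difference of 0.67 (adjusted p = 0.00543). LAMP1, the other major membrane glycoprotein, fell by 0.36 in T47D (adjusted p = 0.0131) and NPC1, the cholesterol exporter, by 0.49 (adjusted p = 0.0442). The LAMP1 call was lost without T47D shCtrl replicate 2 or either T47D shXBP1 array (adjusted p up to 0.0985), although its 4 probe sets all fell in T47D. The NPC1 call was lost without any 1 array but T47D shXBP1 replicate 1 (adjusted p up to 0.249).

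The promoters of lysosomal genes are where the MiT/TFE factors bind, and 5 are shown because they hold CACGTG and belong to lysosomal members with a call under knockdown (LAMP1, MCOLN1, CTSD and NEU1 fell in T47D, CTSD rose in MDA-MB-231, and CTSA rose in both lines). The sequences are RefSeq promoter windows of GRCh38.p14, 250 bases before to 50 bases after the gene start, read 5' to 3' on the strand of the gene. Capitals mark CACGTG, the core of the E-box, and TCACGTGA, which contains it and forms the centre of the CLEAR element. LAMP1 lies at chr13:113296989-113297288 on the plus strand, MCOLN1 at chr19:7522374-7522673 on the plus strand, CTSA at chr20:45891085-45891384 on the plus strand CTSD at chr11:1763878-1764177 on the minus strand and NEU1 at chr6:31862772-31863071 on the minus strand.
LAMP1: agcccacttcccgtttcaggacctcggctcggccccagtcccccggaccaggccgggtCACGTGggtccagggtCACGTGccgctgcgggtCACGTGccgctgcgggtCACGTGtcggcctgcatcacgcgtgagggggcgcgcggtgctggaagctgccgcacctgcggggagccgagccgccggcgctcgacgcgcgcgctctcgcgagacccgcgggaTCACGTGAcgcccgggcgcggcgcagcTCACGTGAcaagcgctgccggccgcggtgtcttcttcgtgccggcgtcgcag
MCOLN1: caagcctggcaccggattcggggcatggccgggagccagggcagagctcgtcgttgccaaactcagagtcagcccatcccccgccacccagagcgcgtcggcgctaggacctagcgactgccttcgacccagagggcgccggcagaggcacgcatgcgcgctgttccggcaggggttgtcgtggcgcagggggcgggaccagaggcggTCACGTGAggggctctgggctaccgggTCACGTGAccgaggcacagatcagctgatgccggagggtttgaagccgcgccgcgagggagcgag
CTSA: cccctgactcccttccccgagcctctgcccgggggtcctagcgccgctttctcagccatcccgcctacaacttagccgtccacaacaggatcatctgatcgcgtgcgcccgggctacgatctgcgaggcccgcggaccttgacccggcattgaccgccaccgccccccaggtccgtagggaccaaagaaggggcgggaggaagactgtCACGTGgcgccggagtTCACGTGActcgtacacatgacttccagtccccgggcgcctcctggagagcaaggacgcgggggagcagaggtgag
CTSD: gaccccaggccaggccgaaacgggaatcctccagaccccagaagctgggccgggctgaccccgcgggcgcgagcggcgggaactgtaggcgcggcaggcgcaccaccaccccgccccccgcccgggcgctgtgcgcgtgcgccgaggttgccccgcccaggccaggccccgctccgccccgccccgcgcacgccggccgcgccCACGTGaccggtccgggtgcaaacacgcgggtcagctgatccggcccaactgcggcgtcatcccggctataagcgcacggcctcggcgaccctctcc
NEU1: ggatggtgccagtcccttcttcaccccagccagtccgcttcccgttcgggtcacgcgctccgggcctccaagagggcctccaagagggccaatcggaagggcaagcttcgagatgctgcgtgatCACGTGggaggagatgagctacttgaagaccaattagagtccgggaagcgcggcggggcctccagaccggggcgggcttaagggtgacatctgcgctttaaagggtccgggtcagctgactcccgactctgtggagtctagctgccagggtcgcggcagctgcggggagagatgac
In these windows LAMP1 held 6 matches of CACGTG, 2 of them within TCACGTGA, MCOLN1 held 2, both within TCACGTGA, CTSA held 2, 1 of them within TCACGTGA, and CTSD and NEU1 each held 1 outside it.

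A promoter was matched for 37 of the 42 members, with 50 windows in all. ASAH1, CTSB, HEXA, LAMP2 and PSAP had no entry in the table. Both motifs read the same on either strand. CACGTG was found in 6 of 13 lysosomal genes with a promoter (LAMP1, MCOLN1, CTSA, CTSD, GAA and NEU1), and in 2 of 21 autophagosome genes (ATG14 and ATG3). By window, that was 37.5% of 16 lysosomal and 7.41% of 27 autophagosome windows. The share was 7.26% over all 35116 windows and 8.34% over the 22199 windows of protein-coding genes. TCACGTGA was present in 4 of the lysosomal genes (LAMP1, MCOLN1, CTSA and GAA), or 25% of their windows, and in 3.7% of autophagosome windows (ATG3). The share was 0.98% over all windows and 1.27% over those of protein-coding genes. The unfolded protein response element TGACGTGG, searched on both strands, was in 0 of the 50 windows. It was in 0.729% of all windows and in 0.761% of those of protein-coding genes. At shares this low, 0 of 50 windows does not set the members apart. Genes with CACGTG did not share a direction in T47D: LAMP1, MCOLN1, CTSD and NEU1 fell, CTSA rose, and GAA, ATG14 and ATG3 were not called. A match of letters is a description and does not show a bound site.

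Of the 5 lysosomal proteases, 3 rose and 0 fell in MDA-MB-231, and 1 rose and 3 fell in T47D. Over all genes, 10.6% rose and 6.68% fell in MDA-MB-231, and 15.5% rose and 13.5% fell in T47D. CTSB, cathepsin B, read 12.20 and 12.14 in MDA-MB-231 shXBP1, against 11.18 and 11.32 in MDA-MB-231 shCtrl. The T47D readings were 12.08 and 12.11 with shXBP1, against 12.29 and 12.20 with shCtrl. The groups did not overlap in either line, and the rise of 0.92 ± 0.09 in MDA-MB-231 passed (1.89-fold, adjusted p = 0.000751) whereas the T47D change of -0.15 did not (adjusted p = 0.29). The T47D value depended on the probe set: 3 other bright probe sets fell there by 1.06 to 1.13, and the mean over all 5 fell by 0.76 (adjusted p = 0.000302). The difference between the lines was 1.07 (adjusted p = 0.00113).

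CTSD, cathepsin D, read 8.57 and 8.44 in MDA-MB-231 shXBP1, against 7.95 and 8.23 in MDA-MB-231 shCtrl. T47D arrays gave 9.93 and 9.84 with shXBP1, against 10.81 and 10.83 with shCtrl. Knockdown arrays lay above their controls in MDA-MB-231 and below them in T47D, with no overlap. CTSD rose by 0.42 ± 0.11 in MDA-MB-231 (adjusted p = 0.0429) and fell by 0.93 in T47D (1.91-fold, adjusted p = 0.000677), a difference of 1.35 (adjusted p = 0.00103). The MDA-MB-231 call was lost without any 1 array but MDA-MB-231 shCtrl replicate 2 (adjusted p up to 0.191).

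CTSZ, cathepsin Z, read 10.11 and 10.06 in T47D shXBP1, against 11.05 and 11.20 in T47D shCtrl. In MDA-MB-231 it read 13.17 and 13.21 with shXBP1, against 13.29 and 13.33 with shCtrl. Arrays were separated in both lines, widely in T47D, where CTSZ fell by 1.04 ± 0.09 (2.06-fold, adjusted p = 0.000155). The change in MDA-MB-231 was -0.13 (adjusted p = 0.415) and the difference was 0.92 (adjusted p = 0.00196). Averaging the 2 CTSZ probe sets gave smaller values of -0.63 in T47D and 0.63 for the difference, both called. CTSL, cathepsin L, read 8.87 and 8.81 in T47D shXBP1, against 9.05 and 9.27 in T47D shCtrl, and 12.36 and 12.35 in MDA-MB-231 shXBP1, against 12.26 and 12.24 in MDA-MB-231 shCtrl. Its fall of 0.32 in T47D (adjusted p = 0.0421) was lost without any 1 array but T47D shCtrl replicate 1 (up to 0.223), and the change in MDA-MB-231 was 0.10. CTSA, a carboxypeptidase that also protects NEU1, rose by 0.37 in MDA-MB-231 (adjusted p = 0.037) and by 0.62 in T47D (adjusted p = 0.00203), and the difference of -0.26 did not pass (95% interval -0.57 to 0.06). Its call in MDA-MB-231 was lost without any 1 of the 4 MDA-MB-231 arrays or either T47D shXBP1 array (adjusted p up to 0.144).

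The glycosidases, which remove sugar units from larger molecules, were called in 4 of 5 cases in T47D. In MDA-MB-231 limma called 0 of 5, also at an unadjusted p of 0.05. That is 80% against 29.1% of all genes in T47D, and 0% against 17.2% in MDA-MB-231. HEXA, a subunit of beta-hexosaminidase, was the exception in direction. It read 9.91 and 9.93 in T47D shXBP1, against 8.85 and 8.98 in T47D shCtrl, and 11.04 and 10.76 in MDA-MB-231 shXBP1, against 10.77 and 10.81 in MDA-MB-231 shCtrl. HEXA arrays were apart in T47D, a rise of 1.00 ± 0.11 (2.00-fold, adjusted p = 0.000467), and overlapped in MDA-MB-231. The difference was -0.89 (adjusted p = 0.00573). With the 4 HEXA probe sets averaged, 2 of them below the array median on most arrays, the T47D rise was 0.49 and the difference -0.38 (adjusted p = 0.0821).

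GLA, alpha-galactosidase A, read 8.87 and 9.01 in T47D shXBP1, against 9.72 and 9.81 in T47D shCtrl. The MDA-MB-231 readings were 11.17 and 11.10 with shXBP1, against 11.22 and 11.32 with shCtrl. Its T47D arrays were clearly lower with shXBP1 and its MDA-MB-231 arrays slightly lower. GLA fell by 0.82 ± 0.10 in T47D (1.77-fold, adjusted p = 0.000541), with a difference of 0.69 between the lines (adjusted p = 0.00853). NEU1, the lysosomal sialidase, read 10.84 and 10.68 in T47D shXBP1, against 11.37 and 11.51 in T47D shCtrl, and 9.35 and 9.16 in MDA-MB-231 shXBP1, against 9.21 and 9.24 in MDA-MB-231 shCtrl. Its arrays were separated in T47D and overlapped in MDA-MB-231. NEU1 fell by 0.68 in T47D (adjusted p = 0.00242), and the difference of 0.71 had an adjusted p of 0.0124 (0.0547 without T47D shXBP1 replicate 2). GUSB, beta-glucuronidase, fell by 0.51 in T47D (adjusted p = 0.00617), and GAA, acid alpha-glucosidase, changed by 0.03.

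Of the 4 genes of lysosomal lipid handling, 1 rose in MDA-MB-231 and 1 fell in T47D. That is 25% called in each line, against 17.2% of all genes in MDA-MB-231 and 29.1% in T47D. LIPA, the acid lipase, rose by 0.43 in MDA-MB-231 (adjusted p = 0.0163) and changed by 0.16 in T47D. ASAH1, acid ceramidase, fell by 0.34 in T47D (adjusted p = 0.0213) and changed by -0.10 in MDA-MB-231. NPC2, which hands cholesterol to NPC1, and PSAP, the precursor of the saposins, had changes from 0.04 to 0.22 with no call. The differences between the lines ran from -0.06 to 0.27 in these 4 genes and 0 passed in limma, also at an unadjusted p of 0.05. The LIPA call was lost without MDA-MB-231 shCtrl replicate 1 or MDA-MB-231 shXBP1 replicate 2 (adjusted p up to 0.0804), and the ASAH1 call without T47D shCtrl replicate 1 or either T47D shXBP1 array (up to 0.145).

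Several members carry more than 1 probe set, and these did not always read alike. The 42 members had 103 probe sets, and 14 members had 1 only. In T47D, 9 of the 23 called members had other probe sets above the array median, 16 in all, of which 14 had the same sign and 11 also passed. In MDA-MB-231 it was 3 of 8 called members, with 6 such probe sets, 5 of the same sign and 4 passing. None of them passed in the opposite direction in either knockdown comparison. Between the lines, 2 probe sets did so with each hairpin, those of NBR1 (0.52) and CTSB (1.10) with shCtrl and those of MAP1LC3B (-0.88) and LAMP2 (-0.74) with shXBP1, all given as MDA-MB-231 minus T47D.

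Other probe sets of members without a call also passed. In MDA-MB-231, 6 of the 34 members without a call had such a probe set above the array median on all arrays. ATG5 (0.48), SQSTM1 (0.46), TFEB (0.60) and LAMP2 (0.35) rose there, and NBR1 (-0.99) and MITF (-0.96) fell. In T47D it was 5 of 19 members. ATG3 (0.81), WIPI2 (0.37), OPTN (0.32) and TFEB (1.18) rose at that probe set, and CTSB fell at 3. Dimmer probe sets that passed belonged to ATG16L1 and ULK2 in MDA-MB-231, and to SQSTM1 and ULK2 in T47D. Different probe sets of a gene can read different transcript ends.

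**Figure D4:**
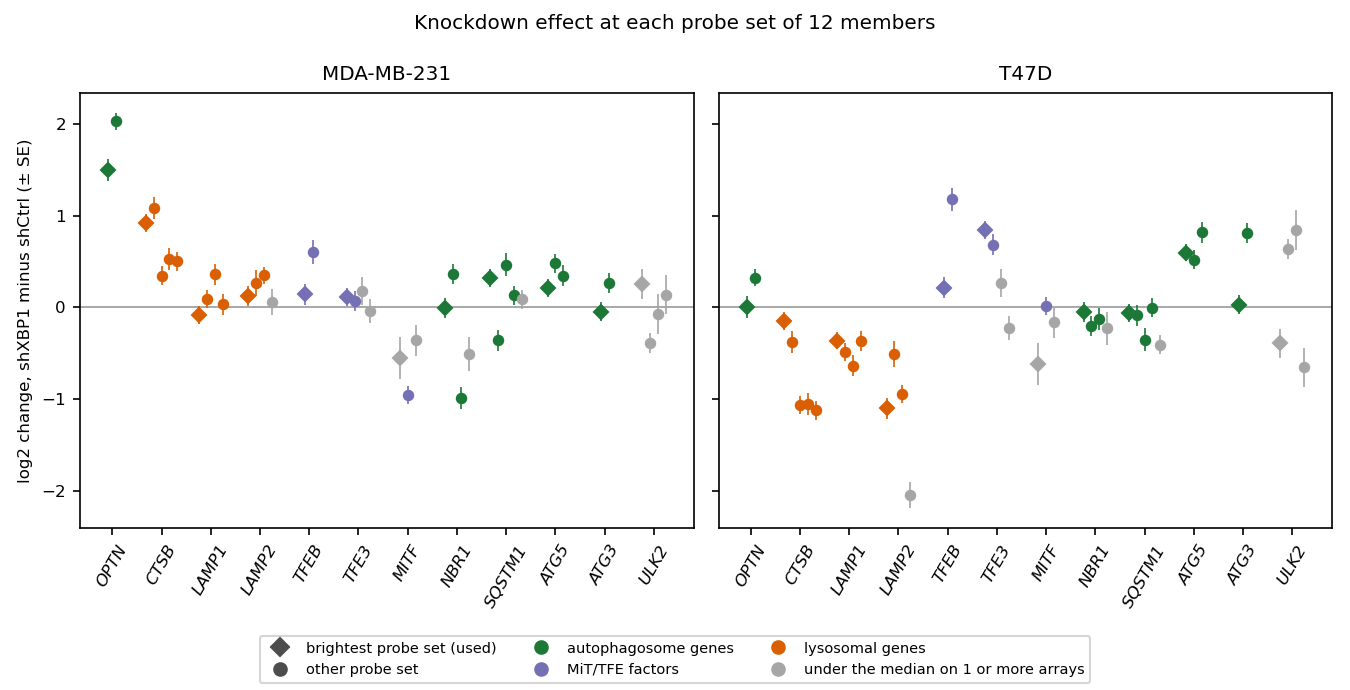
Log2 change with XBP1 knockdown (vertical axis, ± SE) at every probe set of 12 members, in MDA-MB-231 (left) and T47D (right); diamonds are the brightest probe sets, circles the others and grey points are under the array median on 1 or more arrays. The CTSB probe sets spread from -0.15 to -1.13 in T47D, all 4 LAMP2 probe sets lie below 0 there, and both OPTN probe sets lie at 1.50 and 2.03 in MDA-MB-231.

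More members differed between the lines than between knockdown and control. With shXBP1, 32 of 42 members differed between MDA-MB-231 and T47D (76.2% against 50.8% of all genes), 17 higher and 15 lower in MDA-MB-231 (25.9% and 25.0% of all genes). With the control hairpin, 34 differed (81.0% against 49.0%), 15 higher and 19 lower (23.7% and 25.2% of all genes). The arrays of the lines did not overlap for 39 of 42 members with either hairpin, against 71.0% of all genes with shCtrl and 73.7% with shXBP1. These comparisons use the same arrays as the knockdown comparisons and are not independent of them. Among autophagosome genes 5 were higher and 10 lower in MDA-MB-231 shCtrl than in T47D shCtrl, and among lysosomal genes 8 were higher and 9 lower, so neither class as a whole belonged to a line.

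MITF had the largest difference. MITF averaged 11.01 ± 0.29 in MDA-MB-231 shCtrl and 6.64 ± 0.26 in T47D shCtrl (SD, n = 2 each), a log2 difference of 4.38 (adjusted p = 1.76e-06). The T47D arrays read near the array median. CTSL followed at 3.09 (8.50-fold), with 12.26 and 12.24 in MDA-MB-231 shCtrl, against 9.05 and 9.27 in T47D shCtrl. CTSZ (2.19), GABARAPL1 (2.14) and HEXA (1.87) were the next highest in MDA-MB-231. At the other end WIPI1 was 11.4-fold lower in MDA-MB-231, with 7.77 and 7.64 against 11.24 and 11.19 in T47D (log2 difference -3.51, adjusted p = 9.09e-08). CTSD (-2.73), NEU1 (-2.22), OPTN (-1.98) and ATG14 (-1.44) followed. Each of these 10 genes had groups that did not overlap, and each kept its call under all 14 alternatives.

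At the brightest probe sets, the distance between the lines was smaller with shXBP1 for some members and larger for others. Given as MDA-MB-231 minus T47D, the log2 difference of OPTN was -0.48 with shXBP1 and -1.98 with shCtrl. That of CTSB was 0.07 with shXBP1 (adjusted p = 0.555) and -0.996 with shCtrl. The CTSB probe sets did not share this: with shXBP1, 3 others passed at 0.95, 1.09 and 2.69, and the last of these was 1.10 with shCtrl (adjusted p = 0.000112). That of CTSD was -1.38 with shXBP1 and -2.73 with shCtrl. LAMP2 passed in both comparisons with opposite signs, at 0.84 with shXBP1 and -0.38 with shCtrl, and its shCtrl call was lost without either group's replicate 2 (adjusted p up to 0.0901). Another LAMP2 probe set kept its side, at -0.74 with shXBP1 (adjusted p = 0.00255) and -1.51 with shCtrl. ATG4A also passed with opposite signs, at 0.38 with shXBP1 and -0.54 with shCtrl, and so did TFE3, in the other direction, at -0.44 with shXBP1 and 0.29 with shCtrl. The ATG4A call with shXBP1 was lost without T47D shXBP1 replicate 1 or MDA-MB-231 shXBP1 replicate 1 (adjusted p up to 0.0699), and the TFE3 call with shCtrl without any 1 of the 4 arrays compared and with the mean over probe sets (up to 0.273). CTSZ differed by 3.11 with shXBP1 and 2.19 with shCtrl, GLA by 2.20 with shXBP1 and 1.51 with shCtrl, and MCOLN1 by 1.04 with shXBP1 and 0.37 with shCtrl. The test of each such change is the difference between the knockdown effects given above.

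**Figure D5:**
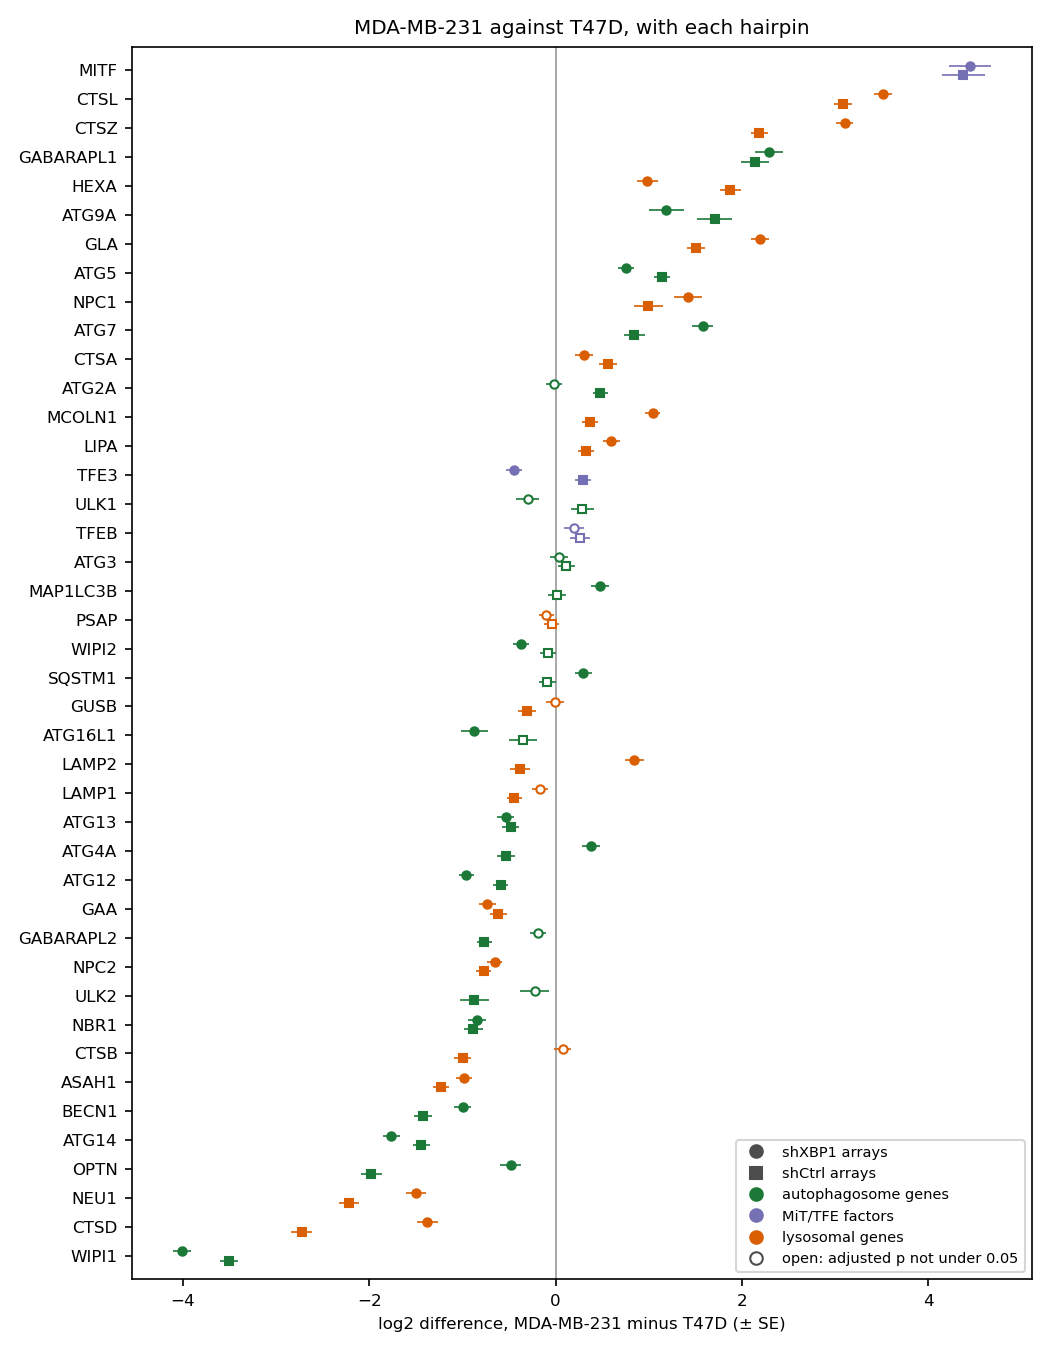
Log2 difference between the lines (MDA-MB-231 minus T47D, horizontal axis, ± SE) for all 42 members with shXBP1 (circles) and with shCtrl (squares), ordered by the shCtrl value; open symbols have an adjusted p that is not under 0.05. MITF lies farthest right and WIPI1 farthest left with both hairpins. LAMP2, ATG4A and TFE3, each called with both hairpins, change sides at the probe sets plotted, and some members without a call in both also do.

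Other genes of the pathway were taken from lists that exclude the 42 members. These lists, like the members, were chosen with earlier results of these data known, so their shares are not independent evidence. Of 16 measured subunits of the vacuolar ATPase, the proton pump that acidifies lysosomes, 3 rose and 0 fell in MDA-MB-231, and 1 rose and 8 fell in T47D. That is 18.8% of the list against 17.2% of all genes in MDA-MB-231, and 56.2% against 29.1% in T47D. ATP6V1D rose by 0.68 and ATP6V0D1 by 0.45 in MDA-MB-231, while in T47D ATP6V1B2 fell by 1.00 and ATP6V0C rose by 0.93. The median change of the list was 0.062 in MDA-MB-231 and -0.26 in T47D. The knockdown effects of these 4 genes differed, as the effect in MDA-MB-231 minus that in T47D, by 0.92 for ATP6V1D, 0.55 for ATP6V0D1, 1.03 for ATP6V1B2 and -0.83 for ATP6V0C. The ATP6V0D1 difference was lost without any 1 of the 4 T47D arrays or MDA-MB-231 shCtrl replicate 1 (adjusted p up to 0.0726), and its MDA-MB-231 call without either shCtrl array or shXBP1 replicate 1 of that line (up to 0.0744).

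Of 26 further hydrolases and cofactors, 5 rose and 2 fell in MDA-MB-231, and 5 rose and 10 fell in T47D (medians 0.12 and -0.15), or 26.9% against 17.2% of all genes in MDA-MB-231 and 57.7% against 29.1% in T47D. SMPD1, acid sphingomyelinase, rose in both lines, by 0.88 in MDA-MB-231 and 1.37 in T47D. CTSS, cathepsin S, rose by 0.90 in MDA-MB-231, where its shCtrl arrays lay below the array median, and CTSF, cathepsin F, fell by 1.37 in T47D. Of 20 further membrane and sorting proteins, 3 rose and 3 fell in MDA-MB-231, and 3 rose and 8 fell in T47D (medians 0.040 and -0.15), or 30.0% against 17.2% of all genes in MDA-MB-231 and 55.0% against 29.1% in T47D. SLC38A9, an arginine sensor of the lysosome, rose by 1.09 in MDA-MB-231 and LAPTM4A by 0.85. TPCN2, a lysosomal cation channel, fell by 0.87 in T47D, as did GNPTG, a subunit of the enzyme that tags hydrolases for the lysosome, by 0.76. LAPTM4A also rose by 0.33 in T47D, a call lost without any 1 of the 4 T47D arrays (adjusted p up to 0.153).

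Of 40 further autophagy genes, 8 rose and 3 fell in MDA-MB-231, and 13 rose and 6 fell in T47D (medians 0.0057 and 0.16). That is 27.5% of the list against 17.2% of all genes in MDA-MB-231, and 47.5% against 29.1% in T47D. BNIP3L, a receptor that sends mitochondria to autophagy, read 9.97 and 9.99 in MDA-MB-231 shXBP1, against 10.51 and 10.53 in MDA-MB-231 shCtrl. In T47D it read 13.08 and 13.01 with shXBP1, against 12.59 and 12.66 with shCtrl. BNIP3L thus fell in MDA-MB-231 and rose in T47D, without overlap in either (-0.54 and 0.42, difference -0.96, adjusted p = 0.00111), and the T47D call was lost without T47D shXBP1 replicate 1 (adjusted p = 0.0555). TP53INP1 rose by 1.28 in T47D and TP53INP2 fell by 1.37, and both encode regulators that bind ATG8 proteins. TP53INP1 lay below the array median on all MDA-MB-231 arrays, between 5.19 and 5.40. PRKAA1, a catalytic subunit of AMPK, fell by 0.52 in MDA-MB-231 and by 0.65 in T47D at its brightest probe set, but the mean over its probe sets in T47D was 0.13 (adjusted p = 0.457). Its MDA-MB-231 call was lost without either MDA-MB-231 shCtrl array or MDA-MB-231 shXBP1 replicate 2 (adjusted p up to 0.08). Of 20 genes of mTORC1 and nutrient sensing, 3 rose and 3 fell in MDA-MB-231, and 4 rose and 3 fell in T47D, or 30.0% against 17.2% of all genes in MDA-MB-231 and 35.0% against 29.1% in T47D. FLCN, part of a complex that controls TFEB and TFE3, fell by 0.74 in MDA-MB-231 and its partner FNIP2 rose by 0.70 in T47D. LAMTOR5, a subunit of the Ragulator scaffold, fell by 0.73 in T47D and NPRL3, a subunit of an inhibitor of mTORC1, rose by 0.48 in MDA-MB-231. The NPRL3 call was lost without any 1 array but MDA-MB-231 shXBP1 replicate 2 (adjusted p up to 0.109), and the FLCN call without either MDA-MB-231 shCtrl array or MDA-MB-231 shXBP1 replicate 2 (up to 0.0779).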

How the data were processed

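Total RNA from 8 samples was measured on Affymetrix expression arrays with 54675 probe sets. Per the submitters' processing notes, the deposited log2 values were made by RMA with affy 1.30.0. The set of arrays that shared a normalization run is not stated there. The values were used as deposited. Of 42898 probe sets in the platform annotation, 41097 carried a single symbol and 1801 several, and 11777 further probe sets were not listed. Each of 19775 genes was represented by its probe set with the highest mean.

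The 4 group means were fitted with limma 3.58.1 (R 4.3.3) over all genes with a moderated test, and Benjamini-Hochberg adjustment was applied over all 19775 genes, with calls at 0.05. The 5 contrasts were the knockdown in each line, the difference between these effects, and the lines compared under each hairpin. The residual degrees of freedom were 4 and the median SE of a contrast between groups was 0.119. With 2 arrays against 2, an exact permutation test cannot go below p = 0.333. The number of arrays limits the precision. The procedure was tested on simulated data.

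The genes named with full values were XBP1, members called in a knockdown comparison or the difference with a log2 size of at least 0.8, all ATG8 proteins, cargo receptors and MiT/TFE factors, the 5 members with the largest difference each way between the control lines, and up to 4 of the largest calls per further list and line, of which the report describes the 2 largest. Other members are given with fewer values. The members and lists were chosen with earlier results of these data known. Alternatives were the mean over probe sets, a filter on dim genes, limma's trend and robust options, renewed quantile normalization, a replicate block, only the 4 arrays compared, and each array left out.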

Additional observations from a re-analysis of the deposited data

Results flagged for a closer look

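The knockdown effect differed between MDA-MB-231 and T47D, by limma's test of the difference itself, for 17 members and XBP1. Over all 122 measured genes of the further pathway lists 51 differed, or 35.0% to 56.2% by list, against 24.8% of all genes. The effect in MDA-MB-231 was higher in 30 of these and lower in 21 (13.0% and 11.8% of all genes). The 29 given here were among the 38 genes chosen for their size of change in a line. That choice favours a called difference, so 29 of 38 is not a share for the pathway. Each value is the log2 effect in MDA-MB-231 minus that in T47D. Among autophagosome members the effect was higher in MDA-MB-231 for OPTN (1.50), ATG4A (0.91), ATG7 (0.73), GABARAPL2 (0.58) and MAP1LC3B (0.46), and lower for ULK1 (-0.59), ATG2A (-0.50) and WIPI1 (-0.50). The other MAP1LC3B probe set, of similar brightness, gave 0.11 (limma adjusted p = 0.653). Among lysosomal members it was higher for CTSD (1.35), LAMP2 (1.23), CTSB (1.07), CTSZ (0.92), NEU1 (0.71), GLA (0.69) and MCOLN1 (0.67), and lower for HEXA (-0.89). TFE3 had -0.74.

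Among the chosen pathway genes it was higher in MDA-MB-231 for TP53INP2 (1.53), CTSH (1.34), SLC38A9 (1.19), CTSF (1.18), ATP6V1B2 (1.03), ATP6V1E1 (1.03), ATP6V1D (0.92), TAX1BP1 (0.88), PPT1 (0.87), ATP6V0A1 (0.86), CTSS (0.83), VMP1 (0.72), LAPTM4B (0.72), TPCN2 (0.68), LAMTOR5 (0.56), ATP6V0D1 (0.55), LAPTM4A (0.52), LAMTOR2 (0.50), ATP6AP1 (0.45) and TSC1 (0.42). It was lower for TP53INP1 (-1.41), BNIP3L (-0.96), TMEM192 (-0.95), RRAGD (-0.91), FNIP2 (-0.84), ATP6V0C (-0.83), NRBF2 (-0.70), M6PR (-0.64) and SMPD1 (-0.49). Of these, TP53INP1 and RRAGD in MDA-MB-231 and CTSS in T47D lay below the array median on all arrays of the line, so these 3 differences are uncertain. CTSH read close to the array median in MDA-MB-231, at 5.94 and 6.09 with shXBP1 and 5.68 and 5.59 with shCtrl. Its difference is uncertain as well. The SMPD1 difference had an adjusted p of 0.86 with the mean over probe sets and that of TP53INP1 0.0776. Those of ATP6V0D1, LAPTM4A, LAMTOR5, LAMTOR2, CTSS, TPCN2, VMP1, ATP6AP1, TSC1, RRAGD, NRBF2 and M6PR were lost without some single arrays (adjusted p up to 0.147). XBP1 itself fell less in MDA-MB-231 than in T47D, with a difference of 1.296 (adjusted p = 0.00745), and its level with shXBP1 was -0.43 in MDA-MB-231 relative to T47D (adjusted p = 0.0747). The part of this unequal fall in the other differences was not tested.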

How the results depend on the processing

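With 2 arrays per group, calls close to the threshold in MDA-MB-231 were the least stable, and the cause was not tested. The count of members called in MDA-MB-231, 8, was 14 with limma's trend and robust options, 5 with the replicate block and 4 with only the 4 arrays compared. Leaving out 1 array gave 3 to 6 calls in MDA-MB-231, 11 to 16 for the difference between the lines, 16 to 21 in T47D, 30 to 34 between the control lines and 29 to 33 between the knockdown lines. The median change of autophagosome genes ran from 0.107 to 0.227 in MDA-MB-231 and from -0.039 to 0.034 in T47D when 1 array was left out, and that of lysosomal genes from -0.019 to 0.117 and from -0.41 to -0.30. With the mean over the probe sets of each gene, the autophagosome medians were 0.064 in MDA-MB-231 and 0.107 in T47D. The same setting turned the direction of MAP1LC3B between the lines (-0.20 with shXBP1 and -0.49 with shCtrl), of PRKAA1 (0.13 in T47D and -0.70 for the difference) and of TPP1 in T47D (-0.22, against 0.47 at its brightest probe set). Replicate numbers were shared between groups, and deviations of same-numbered arrays over all genes had correlations of -0.069 to 0.0381. These low values do not show whether same-numbered arrays were handled together. The block left 315 results for single genes on their side of the threshold, cost 11 their call and gave 1 a call.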
